A study of Homo sapiens with 4 samples.

Results

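Broad distal peaks were examined in the ATAC-seq consensus peaks of SEM, an MLL-rearranged line that the labels call B cell precursor leukemia. A consensus peak was taken as broad and distal when it spanned at least 500 bp and its midpoint lay 5 to 200 kb from the nearest start of a protein-coding transcript (GENCODE basic, hg19). This rule chose 1754 of the 139872 consensus peaks, and 1754 of the 85627 distal peaks of any length. All cells expressed dCas9-KRAB, a catalytically dead Cas9 joined to a repressor domain, and carried either sgFLT3-DE-1, a guide against a distal enhancer assigned to FLT3, or the non-targeting guide sgNT, with 2 libraries per guide. The labels give replicate numbers and name no separate transductions, so the spread between the libraries of a guide may be technical. Accessibility was measured once per library as read counts over each consensus peak, and the table held between 2683477 and 4831164 counts per library. In these pooled cells, fewer cells with a site open and less opening per cell cannot be told apart. Peak length was called from these same 4 libraries, so the lengths and levels below are selected by the rule and are given as a description with no test.

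Enhancers are stretches of regulatory DNA that raise transcription from promoters at a distance. Transcription factors bind them, displace nucleosomes and leave the DNA open to the transposase that ATAC-seq uses to insert sequencing adaptors. Distal open sites also include insulators bound by CTCF and the promoters of noncoding transcripts, so an open distal site is a candidate enhancer and not a shown one. KRAB recruits machinery that lays down repressive chromatin around the site that a guide finds.

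Parts of 5 broad distal peaks are shown, on the plus strand of hg19 (GRCh37), because the results turn on them. In the first, capitals mark the match to the guide with its PAM. In the others, capitals mark matches on either strand to TGTGGTT (RUNX), TGACAG (MEIS), GAGGAAGT (PU.1) or CAGCTG (an E-box).
Peak at the guide match, PAN3 intron, chr13:28843012-28843311: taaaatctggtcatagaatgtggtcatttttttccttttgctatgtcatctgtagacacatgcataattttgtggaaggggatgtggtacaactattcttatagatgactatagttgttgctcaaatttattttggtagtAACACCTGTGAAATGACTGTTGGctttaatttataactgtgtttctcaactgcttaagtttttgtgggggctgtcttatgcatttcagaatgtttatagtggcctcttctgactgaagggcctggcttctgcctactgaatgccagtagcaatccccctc
Peak in a SOX5 intron, chr12:24198864-24199163: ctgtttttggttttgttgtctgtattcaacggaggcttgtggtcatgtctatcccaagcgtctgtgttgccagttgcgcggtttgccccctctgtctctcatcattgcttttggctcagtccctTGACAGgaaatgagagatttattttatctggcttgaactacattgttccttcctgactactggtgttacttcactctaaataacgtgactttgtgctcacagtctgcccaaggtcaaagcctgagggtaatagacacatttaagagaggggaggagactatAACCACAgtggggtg
Peak nearest to IL21, chr4:123499726-123500025: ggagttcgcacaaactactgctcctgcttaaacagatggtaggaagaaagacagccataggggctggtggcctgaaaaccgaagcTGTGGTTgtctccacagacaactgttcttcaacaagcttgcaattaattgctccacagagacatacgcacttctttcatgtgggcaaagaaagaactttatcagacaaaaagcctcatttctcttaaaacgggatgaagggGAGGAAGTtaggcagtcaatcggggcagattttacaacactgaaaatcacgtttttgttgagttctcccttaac
Peak nearest to KIF18A, chr11:27948625-27948924: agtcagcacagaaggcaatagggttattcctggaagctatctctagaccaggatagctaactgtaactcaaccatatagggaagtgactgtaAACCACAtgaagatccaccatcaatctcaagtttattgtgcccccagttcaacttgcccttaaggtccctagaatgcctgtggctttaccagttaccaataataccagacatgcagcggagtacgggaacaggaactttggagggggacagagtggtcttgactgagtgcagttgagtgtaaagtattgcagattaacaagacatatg
Peak in a CDK6 intron, chr7:92384416-92384715: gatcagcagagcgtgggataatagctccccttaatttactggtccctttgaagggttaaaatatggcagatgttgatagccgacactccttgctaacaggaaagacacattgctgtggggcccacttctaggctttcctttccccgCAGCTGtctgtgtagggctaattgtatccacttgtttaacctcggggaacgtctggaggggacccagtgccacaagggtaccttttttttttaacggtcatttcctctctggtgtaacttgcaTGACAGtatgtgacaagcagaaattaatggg

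The peak at the guide match was itself a broad distal peak, and its accessibility was lower with sgFLT3-DE-1 in both libraries. It covered chr13:28842815-28843351 (537 bp), in an intron of PAN3, a gene of the poly(A) nuclease complex, 130 kb from the nearest coding start. The guide matched once in the genome, at chr13:28843152-28843171. Counts were 214 and 338 with sgFLT3-DE-1 against 378 and 350 with sgNT. As CPM, which are counts scaled by library size and by TMM factor, these were 66.1 and 74.7 against 126 and 140, and the guides did not overlap. The mean fell from 133 ± 9.76 (SD, n = 2) to 70.4 ± 6.11 CPM (SD, n = 2), a log2 fold change of -0.92 (SE 0.264). Its unadjusted p, 0.00164 in edgeR's quasi-likelihood test across all tested peaks, ranked first of the 1754 broad distal peaks and 14th of the 82558 tested peaks. The adjusted p was 1.0 in this fit without a block, so the call was not made in it, and the exact permutation test of 2 libraries against 2 cannot go below 0.33. With loess offsets over the mean count added to the TMM factors, the same peak passed, at an adjusted p of 0.0361 in edgeR. The only other broad distal peak within 200 kb of the guide lay 87.0 kb away in an intron of FLT1, which encodes a VEGF receptor, and had counts of 74 and 108 with sgFLT3-DE-1 against 54 and 50 with sgNT, or 23.4 ± 0.723 against 19.0 ± 1.39 CPM (SD, n = 2). These did not overlap after scaling, and its log2 fold change was 0.30 (SE 0.271) with an unadjusted p of 0.277 in edgeR.

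No broad distal peak passed an adjusted p of 0.05 in edgeR with TMM factors alone, in either direction, and DESeq2 and limma-voom also called 0. These fits used a design of the guide alone, with no block for library number. All 1754 had enough counts to be tested. Over all tested peaks 2 of 82558 were called (0.00242%). At an unadjusted p under 0.05, 19 broad distal peaks were lower with sgFLT3-DE-1, 1.08% against 1.07% of all tested peaks, and 11 were higher, 0.627% against 0.827%. These shares were near the background. Both sgFLT3-DE-1 libraries lay below both sgNT libraries in 277 peaks (15.8%, against 13.8% of all tested peaks) and above them in 188 (10.7%, against 13.7%). The median log2 fold change was -0.013 over broad distal peaks and 0.015 over all tested peaks, and 0.020 for the broad distal peaks with loess offsets. With more counts per peak, the median SE was 0.274, against 0.404 over all tested peaks, and the middle 90% of broad distal peaks lay between -0.41 and 0.39. One peak, nearest to LRCOL1, had a larger fall than the peak at the guide match (-1.05 against -0.92). After a GC correction these were -0.89 and -0.99.

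**Figure D1:**
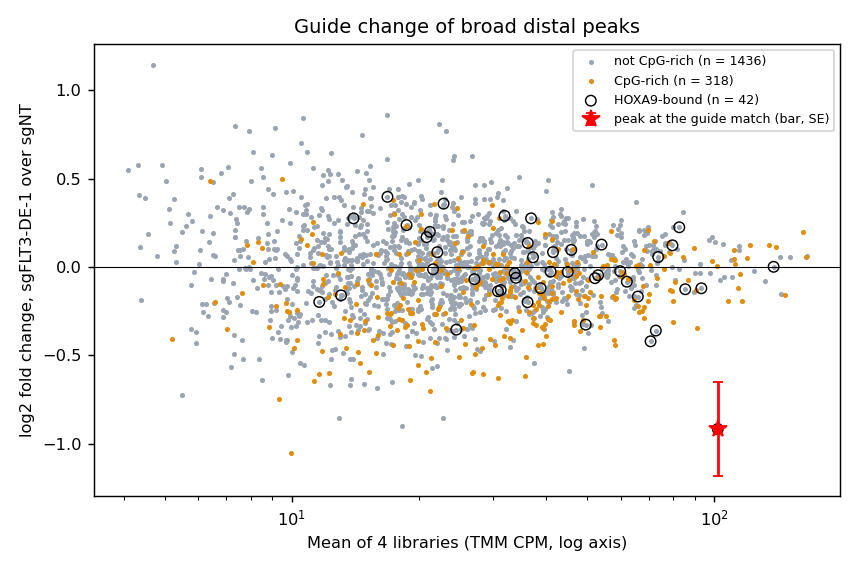
Log2 fold change of sgFLT3-DE-1 over sgNT (vertical axis) against the mean CPM of the 4 libraries (horizontal log axis) for each broad distal peak. The peak at the guide match (star, bar SE) lies at -0.92, below every other peak with a mean above 50 CPM, and most CpG-rich peaks lie below 0.

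The lower peaks with the smallest p, after the guide match, held fewer counts than the guide match. Their levels ran from 18.7 (LRCOL1) to 40.1 CPM per kb (SEPTIN9), against 190 at the guide match and a median of 39.96 over broad distal peaks. The peak nearest to SMOX, which encodes spermine oxidase, had 9.88 and 15.3 CPM with sgFLT3-DE-1 against 24.1 and 23.6 with sgNT, a log2 fold change of -0.90 (SE 0.292). The peak nearest to LRCOL1 had 7.72 and 5.31 against 12.7 and 14.0 CPM (log2 fold change -1.05, SE 0.352). In a SEPTIN9 intron, a gene of a cytoskeletal GTPase, the peak had 11.4 and 20.6 against 24.7 and 34.4 CPM (log2 fold change -0.85, SE 0.294). In all 3 the guides did not overlap, as was also so for the peak nearest to KCTD5, at 14.2 and 17.9 against 27.4 and 25.2 CPM. The LRCOL1 and KCTD5 peaks were CpG-rich as defined below, with GC contents of 76.5% and 78.1%. After a GC correction LRCOL1 moved from -1.05 to -0.89 and KCTD5 from -0.7 to -0.54, while SMOX was at -0.95 and SEPTIN9 at -0.89. Among higher peaks, the one nearest to MELK, a mitotic kinase gene, had 28.1 and 28.7 CPM with sgFLT3-DE-1 against 16.7 and 15.6 with sgNT (log2 fold change 0.81, SE 0.271). Peaks nearest to DERL1 (21.3 and 21.9 against 10.4 and 13.6 CPM), BRI3 (23.2 and 34.9 against 16.0 and 18.4), GPR6 (counts of 51 and 94 against 30 and 30) and ZFAT (6.80 and 6.19 against 3.34 and 2.40) followed. Leaving out 1 library moved the SEPTIN9 value to -0.52 (without the first sgFLT3-DE-1 library) or -1.37 (without the second), and that of BRI3 from 0.77 to 0.42 (without the second). None of these passed the adjusted test without a block, and the 10 peaks named here were chosen by their p.

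**Figure D2:**
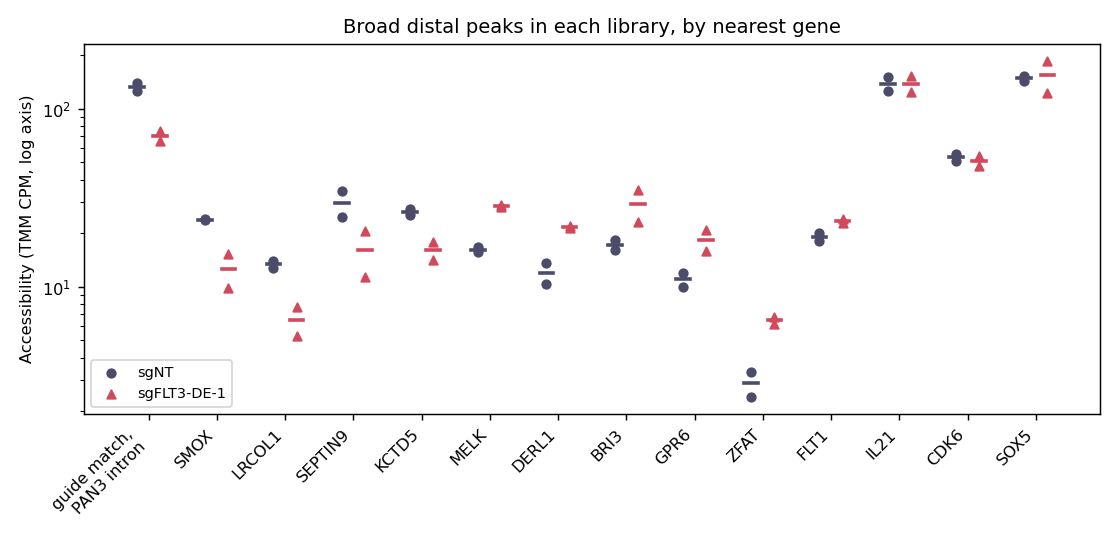
CPM of each library (log axis) for broad distal peaks named by their nearest gene, with sgNT as circles, sgFLT3-DE-1 as triangles and the mean of each guide as a bar. The guides are apart at the guide match and overlap at the peaks nearest to IL21 and SOX5.

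CpG-rich broad distal peaks had lower estimates with sgFLT3-DE-1 than the others, as did CpG-rich peaks elsewhere, and the difference was not tested. CpG islands mark many promoters. A peak was counted as CpG-rich when its GC content was at least 50% and its central 300 bp held at least 0.6 of the CpG expected from their C and G content. By this, 318 broad distal peaks (18.1%) were CpG-rich, against 2.99% of the 83873 shorter distal peaks. Both sgFLT3-DE-1 libraries lay below both sgNT libraries in 115 of the 318 (36.2%), and above them in 13 (4.09%). Among all tested CpG-rich peaks the share below was 26.0% and the share above 6.58%, and among CpG-rich peaks of at least 500 bp within 1 kb of a coding start these were 29.2% and 3.53%. The median log2 fold change of the 318 was -0.142, against 0.009 for the 1436 other broad distal peaks, and both library numbers gave a negative median, -0.169 for number 1 and -0.106 for number 2. GC content moved with this difference: after a correction for GC content the medians were -0.042 and -0.029. Together the 318 took 1.15% and 1.13% of the counts in the sgNT libraries and 1.04% and 1.06% in the sgFLT3-DE-1 libraries (exact permutation test, two-sided p = 0.33, the smallest possible). No CpG-rich broad distal peak passed the adjusted test in edgeR without a block. At an unadjusted p under 0.05 there were 10 below (3.14%, against 1.07% of all tested peaks) and 0 above (against 0.827%).

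Broad distal peaks made up 1.25% of consensus peaks and held 4.75% and 4.83% of the counts in the sgNT libraries and 4.60% and 4.79% in the sgFLT3-DE-1 libraries. The means, 4.79% ± 0.052 and 4.70% ± 0.133 (SD, n = 2), came from libraries that overlapped (exact permutation test, two-sided p = 0.67), and without the first sgFLT3-DE-1 library the difference changed sign, from -0.0932 to 0.001 percentage points. Lengths ran from 500 to 1223 bp with a median of 566 bp. Levels are given as mean CPM per kb of peak over the 4 libraries, and ran from 7.46 to 293 with a median of 39.96, against 18.2 for shorter distal peaks. At the cut itself, the 14 distal peaks of 500 bp had a median level of 34.8 CPM per kb and the 16 that were 1 bp shorter had 47.2, so the cut does not mark a step in level. Length and level were weakly related among broad distal peaks (Spearman's rho 0.128 across 1754 peaks, all from the same libraries). Between pairs of libraries, rho of the level over these peaks ran from 0.869 to 0.946. It was 0.939 (number 1) and 0.946 (number 2) between guides at the same library number. Between the 2 libraries of a guide it was lower, at 0.89 (sgFLT3-DE-1) and 0.927 (sgNT).

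The longest broad distal peaks were GC-rich, and 3 of the 5 lay at the start of a noncoding transcript. The longest, 1223 bp at chr10:65389550-65390772, was nearest to REEP3, which encodes an endoplasmic reticulum shaping protein, and held 95.1 CPM per kb. It was followed by peaks nearest to GRID1 (1134 bp), FER (1068 bp), PTTG2 (1036 bp) and CLCN4 (1030 bp). GC content ran from 58.8% to 71.0% in these 5, against a median of 51.6% over broad distal peaks, and the first 3 lay within 1 kb of the start of a long noncoding RNA.

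**Figure D3:**
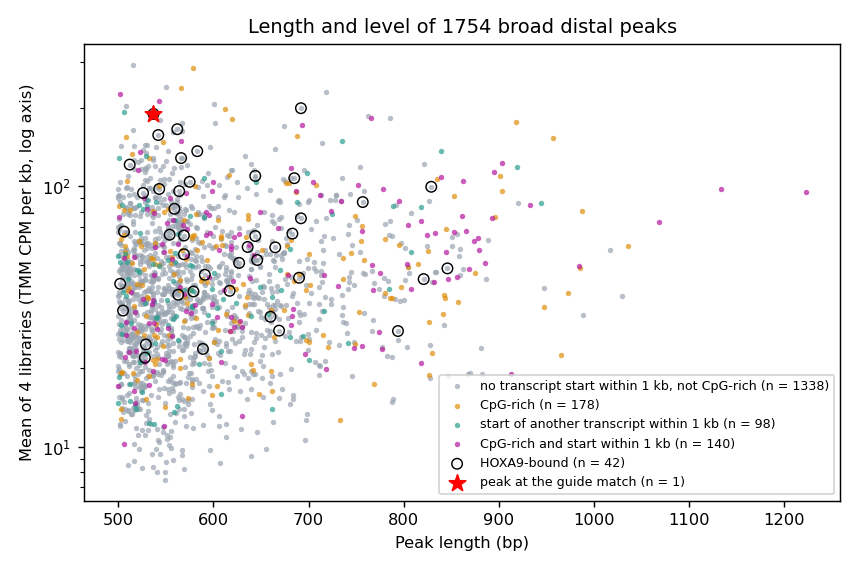
Level (mean of 4 libraries in CPM per kb, log axis) against length (bp) of each broad distal peak, coloured by CpG content and by the presence of a transcript start within 1 kb. The points crowd toward 500 bp, and the peak at the guide match (star, 190 CPM per kb, rank 13) lies near the top at 537 bp.

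Not every broad distal peak was an enhancer candidate by its annotation. Of the 1754, 238 (13.6%) lay within 1 kb of the start of a transcript of another kind, against 4.68% of shorter distal peaks, and 193 of the 238 starts were of long noncoding RNAs. Among them were a peak at LUCAT1 (chr5:90609967-90610467, 128 CPM per kb) and a peak at MIR3142HG (chr5:159894565-159895299, 150 CPM per kb), the host gene of miR-146a. The midpoint of 834 peaks lay in an intron, of 874 between protein-coding genes and of 46 in an exon. The 1338 peaks with no such start and no CpG-rich centre had a median level of 38.5 CPM per kb and a median log2 fold change of 0.007. With the distance measured to starts of all annotated transcripts, 1655 peaks met the rule in place of 1754. The 1655 are not a subset of the 1754. The 238 fall below the 5 kb minimum, so at most 1516 remain, and peaks over 200 kb from a coding start can enter.

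The highest level belonged to a peak in an intron of SOX5, a gene of an SRY-related transcription factor, at chr12:24198757-24199271. It held 153 and 143 CPM in the sgNT libraries and 186 and 122 in the sgFLT3-DE-1 libraries, or 293 CPM per kb. Peaks in ZNF736 (285 CPM per kb), ERICH3 (240), EPHA3 (238) and nearest to PDGFD (230) came next, and then peaks nearest to HNRNPD (227), ERVMER34-1 (212), CCDC81 (206), IMPG1 (203) and IL21 (199). At ZNF736, a zinc finger gene, the sgNT libraries gave 181 and 142 CPM and the sgFLT3-DE-1 libraries 209 and 127, and at EPHA3, an ephrin receptor gene, these were 140 and 117 against 166 and 115. In these 3 the libraries numbered 1 were above those numbered 2 with both guides, and the guides overlapped. Of the 10, 6 were among the first 10 in every library, and none ranked lower than 15th. The peaks nearest to HNRNPD and ERVMER34-1 lay at the starts of noncoding transcripts, the pseudogene VAMP9P and a long noncoding RNA, and so were promoter-like by position. Those in ZNF736 and EPHA3 were CpG-rich, with GC contents of 61.7% and 59.0%, and lay 5.31 and 6.87 kb from a coding start, near the 5 kb minimum.

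Some broad distal peaks were copies of one another. In an alignment of all 1754 with each other, 94 (5.36%) matched another over at least 250 bp at 80% identity or more, and they fell into 12 families. Where copies are near-identical, reads may be split or lost in mapping. This was not measured, so the counts of these peaks may be uncertain. The largest family, of 36, had levels from 12.5 to 230 CPM per kb with a median of 27.2, and the peak nearest to PDGFD was its highest. It also held peaks in an intron of PROM1, which encodes the stem cell surface protein CD133 (65.1 CPM per kb), nearest to MME, which encodes CD10 (35.6), and nearest to SPRY2 (19.5). A second family of 28 had a median of 26.0 CPM per kb. Another family held 8 peaks with a median GC content of 70.3%, all 8 within 1 kb of a noncoding start. Its median log2 fold change was -0.34, and the same limit of unmeasured mapping holds for it.

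HOXA9, a homeobox factor on which MLL-rearranged leukemia depends, binds distal sites together with MEIS1. The study's list of HOXA9-bound regions came from anti-HA ChIP-seq of SEM cells with a doxycycline-induced, HA-tagged HOXA9. It thus maps an ectopic protein, and not endogenous HOXA9 in the cells assayed here. The list held 226 regions on chromosomes 1 to 22, X and Y, and 3 mitochondrial ones that were not used. Of the 226, 42 (18.6%) overlapped a broad distal peak. This was 42 of 1754 broad distal peaks (2.39%), against 0.164% of all peaks, 128 of 83873 shorter distal peaks (0.153%) and 38 of the 2371 shorter distal peaks whose mean CPM was at or above the median of the broad ones (1.60%). The 42 had a median level of 64.6 CPM per kb against 39.6 for the other broad distal peaks, and a lower GC content (44.9% against 51.8%). The highest was the peak nearest to IL21, which encodes a cytokine of the common gamma chain family, at chr4:123499530-123500221. It held 150 and 126 CPM in the sgNT libraries and 153 and 124 in the sgFLT3-DE-1 libraries (log2 fold change 0.00, SE 0.273). The peak at the guide match was second, followed by peaks nearest to VAV3 (166 CPM per kb), KIF18A (157), FSD1L (136), UBASH3B (128), NDST3 (121), SNX9 (110), CEP128 (107) and SLC7A14 (104). Others lay in introns of KIT, the stem cell factor receptor gene (99.6), and SGK1, a kinase gene (58.5).

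Of the 42 HOXA9-bound peaks, the one at the guide match was the only one at an unadjusted p under 0.05 in edgeR. None passed the adjusted test in the fit with TMM factors alone and no block. The estimate was below 0 in 24 and above 0 in 18, with a median of -0.027. Both sgFLT3-DE-1 libraries lay below both sgNT libraries in 6 of the 42 (14.3%) and above in 5 (11.9%), against 13.8% and 13.7% of all tested peaks. Besides the guide match, the peak in an intron of SNX9, a membrane trafficking gene, was among the 6, at 57.1 and 63.5 against 76.5 and 85.3 CPM. The peak in an intron of CDK6, the G1 kinase gene, held 53.3 ± 3.51 CPM in sgNT libraries and 51.0 ± 4.83 in sgFLT3-DE-1 libraries (SD, n = 2). Of the loci whose bound regions the study followed besides FLT3, namely AHI1, CDK6, DCAF11, MAN1C1, NDUFS8, PEBP4, RUNX1 and ZCCHC7, CDK6 was the only one at which a broad distal peak overlapped the bound region.

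Motif letters were searched on both strands in the central 300 bp of each peak, and a match is a description of letters and not a site. This window is longer than most shorter distal peaks (median 172 bp), so there it also takes in flanking bases. Broad distal peaks held the CTCF core motif in 0.342% (6 peaks), against 4.45% of shorter distal peaks, 1.22% of those with high CPM and 3.60% of all peaks. Over whole peaks there were 0.0247 CTCF core matches per kb in broad and 0.232 in shorter distal peaks, so the lower density also held over whole peaks. The RUNX letters TGTGGTT were present in 19.9% of broad distal peaks, 18.0% of shorter ones, 31.2% of shorter ones with high CPM and 16.4% of all peaks. Over whole peaks the order was the other way, at 0.693 RUNX matches per kb in broad and 0.91 in shorter distal peaks. In the 42 HOXA9-bound broad peaks the RUNX letters were present in 16 (38.1%). MEIS letters TGACAG were present in 20.1%, 22.7% and 27.6% of the same 3 sets of distal peaks, and in 12 of the 42. The HOXA9 letters TGATTTAT were rare in all sets, at 1.82% of broad distal peaks, 1.79% of all peaks and 1 of the 42.

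Letters of B-lineage and general factors were counted in the same way, and no difference in share was tested. EBF1 letters CCCNNGGG, which are GC-rich, were present in 23.7% of broad distal peaks, 11.9% of shorter ones and 13.5% of all peaks, and in 22.0% of broad peaks that were not CpG-rich. The E-box CAGCTG was present in 23.4% of broad and 19.4% of shorter distal peaks (18.8% of all peaks), and the E-box CACCTG in 20.4% and 18.3% (17.9% of all). SP1 letters GGGCGG were present in 23.3% of broad distal peaks, 15.3% of all peaks, 77.7% of the CpG-rich broad ones and 11.3% of the rest. ETS letters CCGGAAG were present in 5.13% of broad and 1.77% of shorter distal peaks (3.31% of all). They were in 13.2% of the CpG-rich broad ones and 3.34% of the rest. The PU.1 form GAGGAAGT was present in 6.16% of broad and 6.49% of shorter distal peaks (6.16% of all). GATA letters AGATAA were present in 12.5% and 16.8% (15.6% of all), the AP-1 letters TGANTCA in 14.8% and 16.2% (14.8% of all), and CCAAT in 25.9% and 32.6% (32.6% of all). In shorter distal peaks with high CPM, shares were 14.8% for EBF1, 25.1% for CAGCTG, 12.4% for CACCTG, 3.58% for ETS and 7.63% for PU.1. There they were 15.7% for GATA, 20.5% for AP-1, 29.3% for CCAAT and 12.4% for SP1. Over whole peaks, PU.1 matches were 0.185 per kb in broad and 0.312 in shorter distal peaks, and CAGCTG matches 0.975 and 0.901. The peak at the guide match held 1 RUNX, 1 MEIS and 1 CACCTG match in its 537 bp, and the CACCTG lies within the guide match.

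**Figure D4:**
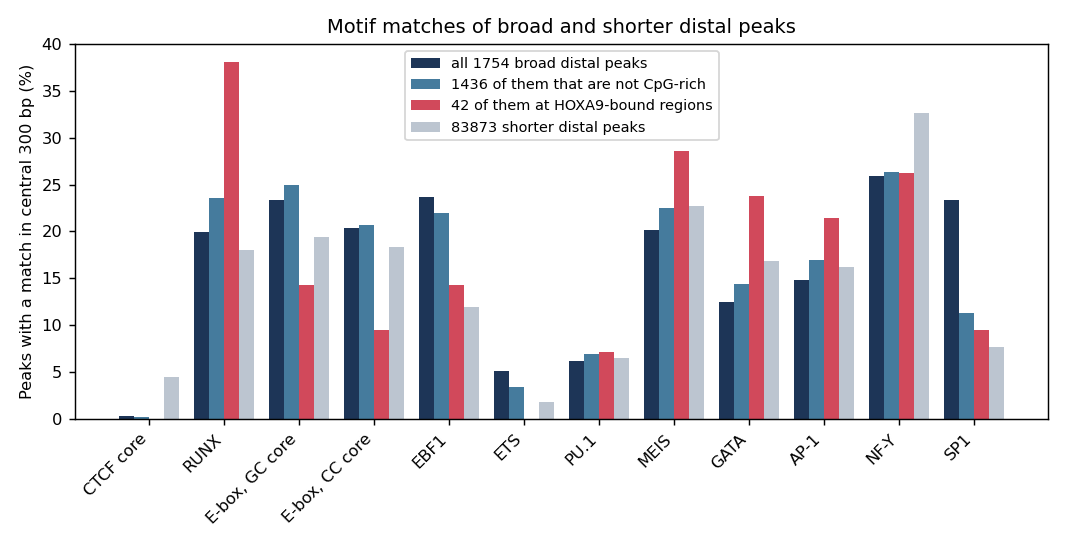
Share of peaks (%) with a motif match in the central 300 bp, for all broad distal peaks, those not CpG-rich, those at HOXA9-bound regions and shorter distal peaks. The CTCF core is at 0.342% in broad and 4.45% in shorter distal peaks, and RUNX reaches 38.1% in the 42 HOXA9-bound peaks.

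The 1754 peaks were nearest to 1503 of 19798 protein-coding genes (7.59%), and 1293 of these genes had 1 peak. Of the 1503 genes, 70.7% had a promoter peak (one no further than 1 kb from a start), against 65.3% of the genes nearest to shorter distal peaks and 58.2% of all genes. The peaks were mostly apart from each other, with a median of 332 kb to the next one, and 50 had another within 10 kb. VAV3, which encodes a guanine nucleotide exchange factor of antigen receptor signalling, had the most, 5 of its 52 distal peaks of any length. These 5 spanned 507 kb, with levels from 10.9 to 166 CPM per kb. The highest of these, at chr1:108559022-108559583, was HOXA9-bound and lay 51.5 kb upstream of a VAV3 start.

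Another 8 genes were nearest to 4 broad distal peaks each: CROCC, DAD1, AUTS2, ANK1, PRKAG2, LRIG1, PDE4D and GSDMC. Their distal peaks of any length ran from 9 (CROCC) to 91 (PDE4D), so equal counts were unlike shares. The 4 nearest to DAD1 spanned 78.1 kb at chr14:22953105-23031179, with levels from 50.9 to 78.6 CPM per kb, and the annotated starts closest to them were of TRD-AS1, of TRAC (the constant gene of the T cell receptor alpha chain) and of a long noncoding RNA. The 4 in introns of LRIG1, a gene of a receptor tyrosine kinase regulator, ranged from 35.8 to 59.5 CPM per kb. PDE4D, a cAMP phosphodiesterase gene, had 4 between 33.4 and 45.5. The 4 nearest to GSDMC lay 98.3 to 186 kb from its start on chromosome 8, with the noncoding gene CCDC26 the closest annotated start to each. Both sgFLT3-DE-1 libraries were below both sgNT libraries in 3 of these 4, against 13.8% of all tested peaks and 15.8% of broad distal ones. The one 186 kb away had 18.5 and 20.3 against 26.1 and 28.0 CPM, and none passed the adjusted test. Peaks of 1 gene share the same 4 libraries. Estimates of 1 sign also occurred elsewhere, from -0.3 to -0.07 at CROCC and from 0.025 to 0.4 at PDE4D, and no gene was tested as a group. GAP43, a neuronal growth cone gene, had 3 peaks and the most summed CPM among the 22 genes with 3, which placed it in the first 10, and the highest was at 177 CPM per kb, and no consensus peak lay at its promoter.

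**Figure D5:**
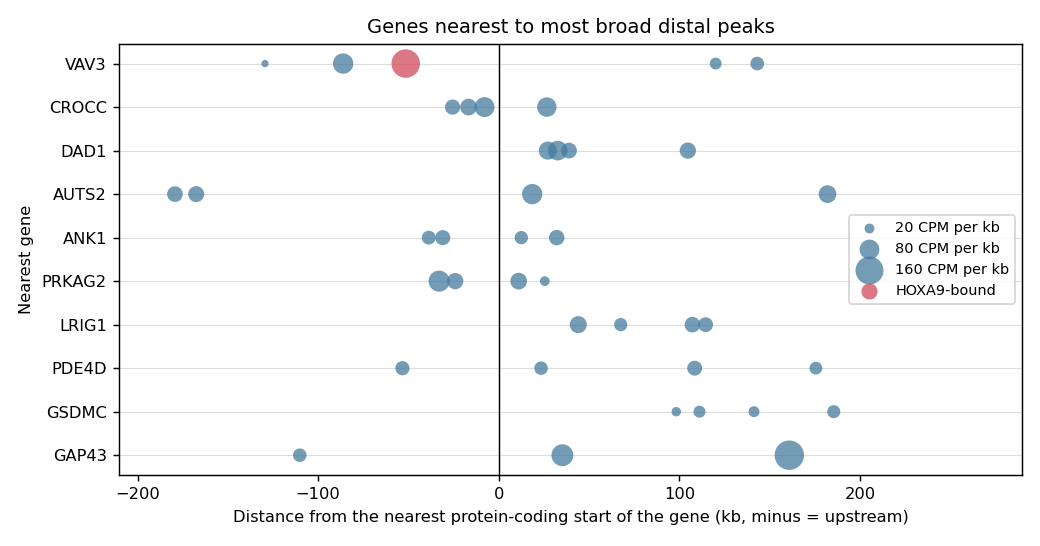
Broad distal peaks of the 10 genes nearest to most of them (ties ordered by summed CPM), placed by distance from the nearest protein-coding start of the gene (kb, upstream negative), with circle area in proportion to level. Only VAV3 has a HOXA9-bound peak among the 10 genes.

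By gene groups, 34.4% of B-lineage transcription factor genes (11 of 32) were nearest to a broad distal peak, among them MEF2C, BACH2, FOXP1, ETS1 and RUNX1, against 7.59% of all genes. Such genes had many distal peaks of any length: 15 of their 656 were broad (2.29%), against 2.05% over all genes. The broad peaks of MEF2C, a MADS-box factor, held 80.7 and 66.6 CPM per kb, and the intronic peak of FOXP1, a forkhead factor, held 112. MAPK and JAK-STAT feedback genes had a broad distal peak in 11 of 26 (42.3%), and 13 of their 275 distal peaks were broad (4.73%). They included SPRY1 (109 CPM per kb), JUN (70.8 and 45.3), EGR3 (69.2 and 32.1), DUSP4, DUSP5 and SOCS3. Of MLL-fusion targets and HOX cofactors, 10 of 35 (28.6%) had one, with 14 of 767 distal peaks broad (1.83%). Of pre-B receptor, V(D)J and surface genes, 7 of 29 (24.1%) had one, with 9 of 271 broad (3.32%), and the intronic peak of MME held 73.6 CPM per kb.

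In the other lists the share of genes with a broad distal peak ran from 0% to 15.8%, on both sides of the 7.59% of all genes, and no difference between lists was tested. Of 19 BCL2 family and death genes 3 (15.8%) had one, with 3 of 176 distal peaks broad (1.70%), at levels of 107 (BCL2), 105 (PMAIP1) and 21.4 CPM per kb (BCL2A1). CDK6 and CCND3, of 21 cell cycle genes (9.52%), had 2 each, or 4 of 118 distal peaks (3.39%, against 2.05% over all genes), from 11.7 to 75.4 CPM per kb. Of 21 ribosomal protein genes 1 (4.76%) had one. Of 23 T and NK cell genes 3 had one, TCF7, GZMB and EOMES, a share above the 7.59% of all genes, with 2.03% of their distal peaks broad. Among genes of other tissues, 1 of 17 myeloid genes (5.88%, CEBPB), 0 of 15 erythroid and megakaryocyte genes and 2 of 35 genes of non-blood tissues (5.71%, EPCAM and MYOD1) had one, with 1.85%, 0% and 1.27% of their distal peaks broad. No peak of any of the lists passed the adjusted test in edgeR with TMM factors alone and no block. Medians of the lists ran from -0.18 to 0.14 on the log2 scale, against -0.013 over all broad distal peaks. As a check of the labelled cell type, 8 of 12 B cell precursor markers had a promoter peak, with none at CD79A, CD79B, RAG1 or BLNK. Of all genes 58.2% had one, so this count alone does not mark the cell type. Among blood markers of other types, 1 of 8 T and NK, 2 of 6 granulocyte and monocyte and 1 of 5 erythroid markers had one. So did 1 of 3 hepatocyte, 1 of 4 epithelial, 1 of 3 neuron and 0 of 3 muscle markers. These sets are small, and no difference was tested.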

How the data were processed

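ATAC-seq libraries of SEM cells with dCas9-KRAB were grouped by the guide in the labels. The authors deposited raw counts per consensus peak and the peak positions (hg19). The sources differ on how these were made: the extract protocol names cutadapt 1.18 and Bowtie2 2.2.9, and the submitters' processing notes name MACS2 2.1.1.20160309, BWA, Trim Galore 0.4.4 with cutadapt, bedtools 2.24.0 and SAMtools 1.2. The study's methods give default MACS2 parameters for each sample, followed by a merge, and name no fragment size. Its reporting summary instead gives calls on fragments under 100 bp, with the reproducible peaks of each condition merged. Which fragments were counted was not given in the sources used here.

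Coding starts were taken from GENCODE release 44 lifted to GRCh37, and sequences from GRCh37. Peaks that passed filterByExpr (minimum count 10, minimum total 15) were tested in edgeR 4.0.16 (glmQLFit and glmQLFTest, TMM factors, design without a block), with Benjamini-Hochberg adjustment over all tested peaks and a threshold of 0.05. DESeq2 1.42.0, limma-voom 3.58.1, other scalings, filters, a GC correction, a replicate block and the omission of each library were alternatives. Shares of counts were compared by exact permutation tests. Families came from blastn 2.17.0 (e-value 1e-10). HOXA9-bound positions were read from the study's list. Named peaks were the peak at the guide match and those within 200 kb of it, the 10 of highest level, the 5 longest, the 5 of smallest p in each direction, those of the 10 genes nearest to most peaks (ties by summed CPM), HOXA9-bound peaks (the 10 highest and any at followed loci), and for each gene list the 3 genes with most summed CPM. KIT, SGK1 and the peaks at LUCAT1 and MIR3142HG, the family members and the gene names in lists were added after their values were seen. The comparison with shorter distal peaks of high CPM was also chosen after seeing the data. The peaks, lists and rules were chosen with earlier results of these data known.

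Counting error enters the SE of each fit, and 2 libraries per guide limit the precision.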

Additional observations from a re-analysis of the deposited data

How the results depend on the processing

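No broad distal peak was called in the fits that left out each library (0 to 0 in each direction), with other size factors, with total counts only, without the filter, with a mean count of at least 50, with DESeq2, with limma-voom or with a GC correction alone. With loess offsets 1 lower peak was called, the one at the guide match (log2 fold change -0.87). Library numbers are shared between the guides, and the labels do not say that a number marks a batch. Differences between numbers 1 and 2 correlated between guides (r = 0.397 across tested peaks), with only 2 pairs. In edgeR with a replicate block 4 lower peaks were called (the guide match at -0.92, adjusted p 2.74e-10, and those nearest to SMOX, SEPTIN9 and FAM90A1) and 1 higher (MELK), and over all peaks 57 lower and 17 higher. With the GC correction and a replicate block in edgeR, 3 lower and 1 higher were called, the guide match at -1.0 (adjusted p 2.8e-06), and FAM90A1 was not. The cause was not tested. The FAM90A1 peak belongs to the family of 8 copies with high GC content, for which mapping was not measured. Leaving out a library, the guide match ranged from -1.02 to -0.84, the median of broad distal peaks from -0.065 (without the second sgFLT3-DE-1 library) to -0.021, and the difference in their share of counts from -0.187 to 0.001 percentage points (above 0 without the first sgFLT3-DE-1 library). Without the filter the median was -0.075. A minimum length of 400 bp gave 4656 peaks, 71 of them HOXA9-bound, and 750 bp gave 155 and 5. The 9 other peaks named by p kept their direction in each alternative that gave a value; those nearest to LRCOL1 and ZFAT gave none with a mean count of at least 50. Depth limits the peaks with the fewest counts most.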
